A study of Mus musculus with 5 samples.

Results

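The 7 kidney miRNAs described here were the 5p arms of the miR-10, miR-99/100 and miR-125 families, 7 of 1247 miRNAs on an Agilent mouse microarray. The array lists them with a prefix for mouse, as mmu-miR-10a-5p, mmu-miR-10b-5p, mmu-miR-99a-5p, mmu-miR-99b-5p, mmu-miR-100-5p, mmu-miR-125a-5p and mmu-miR-125b-5p, and the prefix is left out from here on. They were chosen by name, and each was present on all 5 arrays. Kidneys of male C57B/6 mice of 20 to 25 g were compared between sham surgery and ischemia reperfusion injury (IRI), in which the vessels of both kidneys were clamped for 30 min of warm ischemia. Tissue was taken at 6, 12, 24, and 48 h of reperfusion from 8 mice per time point. In sham-operated control mice no vessel was clamped. The age of the mice is not given in the sources used here. Each of the 5 groups had 1 array, and whether the RNA of the mice was pooled for it is not stated. The spread between mice is therefore unknown, groups could not be tested against each other, and errors are scanner errors unless named as spot spread. A scanner error combines the spread over the spots of a single array with a preset error of the software.

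A miRNA directs Argonaute proteins to mRNAs, mostly by pairing of its seed, and lowers their translation and stability. The miR-10 and miR-99/100 families are old relatives of one another, and the miR-10 genes lie within Hox clusters, whose transcription factors pattern the body axis. The miR-125 family is the vertebrate counterpart of lin-4, the founding miRNA of C. elegans, and its genes often sit beside a let-7 gene and a miR-99/100 gene in a shared cluster. Members of the miR-99/100 family are known to repress the kinase mTOR, and miR-125b is known as a regulator of blood stem cells and of p53. Nothing of mRNA targets was measured on these arrays.

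RefSeq mature sequences on GRCm38.p6 were found for 7 of the 7 miRNAs and for 1017 of the 1247 on the array. They are shown because the 3 families are defined by their seeds, and because some members differ so little that a probe may not separate them. Capitals mark the seed, bases 2 to 8 from the 5′ end, and all genes are on the plus strand.
miR-10a-5p, chr11:96317186-96317208: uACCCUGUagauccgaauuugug
miR-10b-5p, chr2:74726074-74726096: uACCCUGUagaaccgaauuugug
miR-99a-5p, chr16:77598940-77598961: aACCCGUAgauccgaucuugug
miR-99b-5p, chr17:17830194-17830215: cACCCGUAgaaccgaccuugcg
miR-100-5p, chr9:41531437-41531458: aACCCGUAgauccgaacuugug
miR-125a-5p, chr17:17830817-17830840: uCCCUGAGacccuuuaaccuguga
miR-125b-5p, chr9:41581940-41581961 and chr16:77646279-77646300: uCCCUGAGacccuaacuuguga

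The 7 miRNAs shared 3 seeds. miR-10a-5p and miR-10b-5p differed at 1 of 23 bases, U12A, with positions counted from 1 at the 5′ end and the base of the first-named miRNA first. miR-99a-5p and miR-100-5p differed at 1 of 22 bases, U16A. miR-99b-5p stood further away, with 4 differences from miR-99a-5p, namely A1C, U11A, U16C and U21C. miR-125a-5p and miR-125b-5p had their first 13 bases in common and were 24 and 22 bases long. The G and C content was 63.6% in miR-99b-5p and lower in the other members, down to 43.5% in the miR-10 pair. On the array, the miR-125 seed was also found in miR-351-5p, miR-6394 and miR-6367, which were detected on 1, 3 and 0 arrays.

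Each member was read by 2 probes of 20 spots each. The longer probes of the close pairs are given to show how far the array could tell these miRNAs apart, and the capital marks the base by which the probes of a pair differ.
miR-10a-5p probe: cacaaattcggAtctacaggg
miR-10b-5p probe: cacaaattcggTtctacaggg
miR-99a-5p probe: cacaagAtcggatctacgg
miR-100-5p probe: cacaagTtcggatctacgg
The probes of these 4 miRNAs had as few as 1 mismatch to another member. The fewest mismatches were 3 for miR-99b-5p, 5 for miR-125b-5p and 6 for miR-125a-5p. How much signal one member gave on the probes of another was not tested. The 2 genes of miR-125b-5p give the same mature sequence, so the array could not say which of them was used.

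By position, the members fell into 3 clusters and 2 single genes. The gene of miR-99b lay on chromosome 17 within Spaca6, a protein-coding gene for a sperm membrane protein, with let-7e starting 172 bases and miR-125a starting 623 bases after it. On chromosome 16, miR-99a was followed by a let-7c gene after 732 bases and by a miR-125b gene after 47339 bases. On chromosome 9, miR-100 was followed by the other miR-125b gene after 50503 bases, and by a let-7a gene whose 3p arm starts 5340 bases after it. The other distances are between starts of 5p arms, and the 5p arm of this let-7a gene was not in the table used. Both miR-100 and miR-125b lay within the lncRNA Mir100hg. Mir10a lay within the annotated span of Hoxb3, 1059 bases from Hoxb4, and Mir10b within the spans of Hoxd3 and Hoxd4.

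Of a kidney tubule list, 7 of 7 miRNAs were detected on every array, and of a liver and muscle list 0 of 4 on any. The lists were chosen with earlier results of these data known, so that these counts are a description. miR-204-5p of the tubule list was detected by 1 of 2 probes on the sham, 6, 12, and 48 h arrays. A miRNA was counted as detected when at least 1 of its probes exceeded 3 times its error, which held for 219, 248, 279, 298, and 197 miRNAs on the sham, 6, 12, 24, and 48 h arrays, and for 182 on all of them. The signal of a miRNA, called own-probe signal, is the sum over its detected probes in the arbitrary intensity unit of the scanner. The signals of the detected miRNAs moved with time. At 6, 12, 24, and 48 h, the median log2 ratio over sham of these 182 miRNAs was 0.16, 0.55, 1.03, and −0.23. The 4 spike-in controls, RNAs added during labelling and hybridization, had mean log2 ratios of 0.07, 1.05, 1.09, and 1.04. Single controls ran from 0.70 to 1.68 at 12 h, from 0.61 to 1.58 at 24 h, and from 0.63 to 1.28 at 48 h. The software multiplied signals by an effective feature size of 0.6 on the sham, 6 h and 48 h arrays and of 0.774 and 0.776 on the 12 and 24 h arrays. The value of 0.6 is marked as the default of the software, and those of the 12 and 24 h arrays are not. Sham and 6 h shared slide 1 and a scan, and 12 and 24 h shared slide 2 and a scan. The 48 h array was on slide 2 but scanned apart. When sham is compared with 12, 24, or 48 h, the effect of the slide and that of the group cannot be told apart. Members are therefore given unscaled, with 1 effective feature size for all arrays, and against the median of the 182 miRNAs. In the last, a brightness common to an array cancels, and so would a change of RNA shared by most miRNAs. Which of these moved the median was not tested.

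The members did not move as one group. At 6 h after IRI, 0 of the 7 differed from sham by more than 2 scanner errors, which 39.0% of the 182 did. At 12 and 24 h, the miR-10 pair, miR-99a-5p and miR-100-5p stayed low against the median of the 182 detected miRNAs. The size of these distances depended on the processing. The 24 h distance of miR-10a-5p shrank to −0.018 in the processed table of the authors. With normexp background correction, those of miR-10b-5p and miR-100-5p at 24 h were −0.21 and −0.28. After quantile normalization, those of miR-10b-5p and miR-99a-5p at 12 h were −0.24 and −0.30. All of these are less than 2 scanner errors. miR-99b-5p and the miR-125 pair were within 2 errors of the median of the 182 at both time points. At 24 h, miR-125b-5p had 2.56 times, miR-125a-5p 2.42 times and miR-99b-5p 2.35 times its sham signal, without scaling. At 48 h, 2 of the 7 were above sham and 5 below it, beside 39.0% of the 182 above it.

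**Figure D1:**
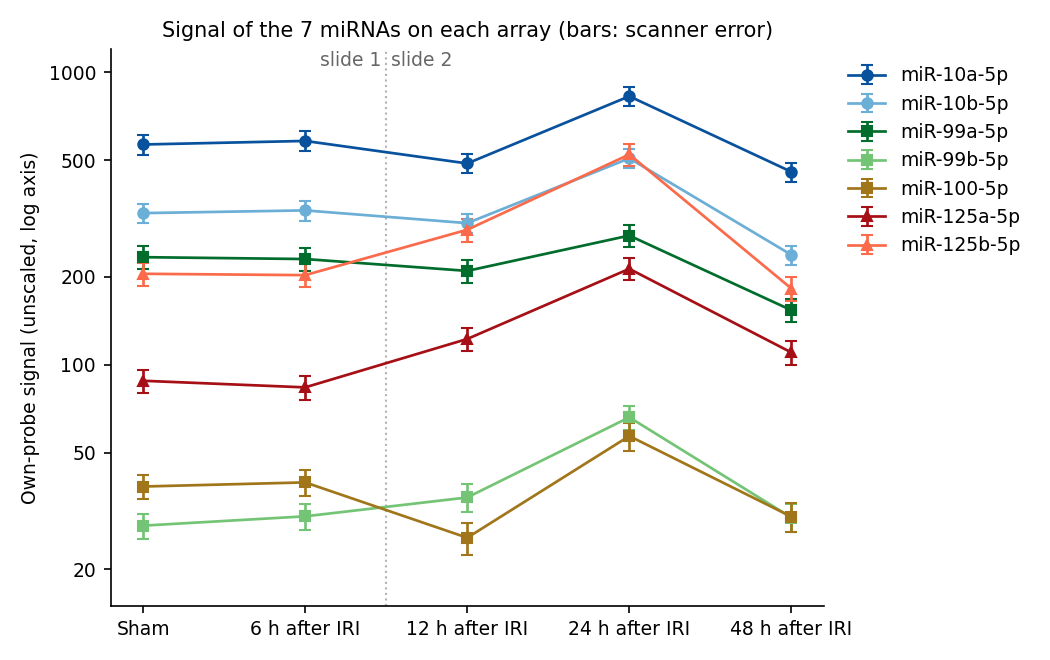
Own-probe signal (log axis, unscaled) of the 7 miRNAs on the sham, 6, 12, 24, and 48 h arrays, with the scanner error as bars and the slide border as a dotted line. Every member had its highest signal at 24 h. Signals of different miRNAs depend on their probes and are not to be compared with one another.

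In the miR-10 family, miR-10a-5p, encoded beside Hoxb4, had a signal of 567 in sham kidney and of 583, 488, 829, and 457 at 6, 12, 24, and 48 h. Without scaling, the 24 h array was high and the 12 and 48 h arrays were below sham by less than 2 errors. Over sham, its log2 ratios at 6, 12, 24, and 48 h were 0.04, −0.22, 0.55, and −0.31, with an error of 0.16. Of the neighbours in the order of its 5 signals, 48 h, 12 h, sham, 6 h, and 24 h, only 6 and 24 h lay more than 2 errors apart, and with 1 feature size none did. The 12 h ratio was −0.58 with 1 feature size, more than 2 errors below sham, and the 24 h ratio 0.18, within 2 errors of it.

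miR-10b-5p, encoded in the HoxD cluster, had the same order, with 330.2 on the sham array and 337, 305, 508, and 238 at 6, 12, 24, and 48 h. Its log2 ratios over sham were 0.03, −0.11, 0.62, and −0.47 with an error of 0.16. The 48 h signal was therefore below sham by more than 2 errors. The difference between the log2 ratios of the 2 miR-10 miRNAs was 0.01, −0.10, −0.07, and 0.16 at the 4 time points (miR-10a-5p minus miR-10b-5p, error 0.22), within 1 error at each time point. Since their probes differ at 1 base, like values do not show that both RNAs changed alike.

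In the miR-99/100 family, the members differed among themselves. miR-99a-5p, the first miRNA of the chromosome 16 cluster, gave 233 on the sham array, followed by 230.0, 209, 277, and 154 at 6, 12, 24, and 48 h. The log2 ratios over sham were −0.02, −0.16, 0.25, and −0.60 with an error of 0.18, so that 48 h was low and 24 h was within 2 errors of sham. Its log2 ratio was the lowest of the 7 at 24 h, and with 1 feature size it was −0.13 there.

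miR-100-5p, its neighbour in sequence, had a signal of 38.3 in sham kidney and of 39.6, 25.6, 57.1, and 30.2 at 6, 12, 24, and 48 h. The log2 ratios over sham were 0.05, −0.58, 0.57, and −0.34, with errors of 0.20 to 0.23. The low 12 h value rested in part on detection, because the dimmer of its 2 probes was not detected on that array and was left out of the sum. With its brighter probe alone, the 12 h log2 ratio was −0.33, and with both probes whether detected or not it was −0.34, both within 2 errors of sham.

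miR-99b-5p, from the chromosome 17 cluster, gave 28.2 on the sham array, followed by 30.3, 35.2, 66.1, and 30.0 at 6, 12, 24, and 48 h. The 24 h array stood out, and the other 4 arrays were close together. Log2 ratios over sham were 0.11, 0.32, 1.23, and 0.09 with errors of 0.20 to 0.21. At 24 h its log2 ratio was higher than that of miR-99a-5p by 0.99 (error 0.27) and than that of miR-100-5p by 0.66 (error 0.29), differences of more than 2 errors between miRNAs of 1 seed. With normexp background correction these differences were 0.54 and 0.29, and the latter was then about as large as 1 error. At 48 h it was higher than that of miR-99a-5p by 0.69 (error 0.28).

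In the miR-125 family, miR-125b-5p had a signal of 205 in sham kidney and of 203, 289.6, 524, and 182 at 6, 12, 24, and 48 h. Sham and 12 h, and 12 and 24 h, were neighbours more than 2 errors apart in the order of its unscaled signals. Log2 ratios over sham were −0.02, 0.50, 1.36, and −0.17 with an error of 0.19. With 1 feature size the ratio was 0.13 at 12 h and 0.98 at 24 h, and only 12 and 24 h stayed more than 2 errors apart as neighbours.

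miR-125a-5p gave 88.2 on the sham array, followed by 83.7, 123, 213, and 110.2 at 6, 12, 24, and 48 h. Its log2 ratio over sham was −0.07, 0.47, 1.27, and 0.32 with errors of 0.18 to 0.19. The 12 and 24 h arrays were high, and 48 h was within 2 errors of sham. Corrected to 1 feature size, the 12 h ratio was 0.11, within 1 error of sham, and the 24 h ratio 0.90. The spike-in controls gave −0.58 at 12 h. The 2 miR-125 miRNAs had log2 ratios within 0.08 of each other at 6, 12, and 24 h, and differed by 0.49 (error 0.26) at 48 h, where miR-125a-5p was the higher.

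Counted over the family, 3 of 7 members were at least 2-fold higher at 24 h than on the sham array, where 51.1% of the 182 detected miRNAs were. With 1 feature size 0 of 7 were, beside 31.3% of the 182. Scaled by the mean of the spike-in controls, the 24 h log2 ratios were 0.27 for miR-125b-5p, 0.18 for miR-125a-5p and 0.14 for miR-99b-5p. The other 4 were between −0.84 and −0.47, so that those 4 were above sham without scaling and below it here. Single controls ran from 0.61 to 1.58 at 24 h. The unscaled ratios of miR-99b-5p, the miR-125 pair and miR-10b-5p (0.62) lay between these, so that their signs depend on the control used. Without scaling, the signal was above sham in 4 of 7 members at 6 h (74.7% of the 182), in 3 at 12 h (86.3%), and in all 7 at 24 h (99.5%). Only the miR-125 pair was above sham at 12 h with 1 feature size, as were 59.9% of the 182. Scaled by the spike-in controls, 1 member was above sham at 6 h, where 63.2% of the 182 were, and 3 were at 24 h, where 46.7% were. None was above sham at 12 h, against 28.6% of the 182, or at 48 h, against 7.14%. The members differing from sham by more than 2 scanner errors numbered 0 of 7 at 6 h (39.0% of the 182), 3 at 12 h (61.5%), 6 at 24 h (91.8%), and 2 at 48 h (54.9%). At 1 feature size, 4 members differed at 12 h (51.6% of the 182), the miR-10 pair, miR-99a-5p and miR-100-5p, all of them lower than sham, and 3 at 24 h (69.2%), miR-99b-5p and the miR-125 pair, all of them higher. The median log2 ratio of the 7 was 0.03, −0.11, 0.62, and −0.31 at 6, 12, 24, and 48 h, against the medians of 0.16, 0.55, 1.03, and −0.23 given above for all 182.

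Against the median of the 182 detected miRNAs, all 7 members were low at 6 h, by −0.23 to −0.05 on the log2 scale, less than 2 errors each. At 12 h the values were −1.13 for miR-100-5p, −0.76 for miR-10a-5p, −0.70 for miR-99a-5p, −0.66 for miR-10b-5p, −0.23 for miR-99b-5p, −0.07 for miR-125a-5p and −0.05 for miR-125b-5p. The first 4 were at least 1.5-fold below the median, a distance that 11.5% of the 182 reached. miR-100-5p ranked 181 of 182 from the top at 12 h, and its brighter probe alone stood at −0.85. Fewer cells of a type and less of an RNA in each cell cannot be told apart in whole kidney tissue.

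At 24 h, miR-99a-5p stood at −0.79, rank 177 of 182, the 1 member at least 1.5-fold below the median, where 9.34% of the 182 were. miR-10a-5p was at −0.48, miR-100-5p at −0.46 and miR-10b-5p at −0.41. miR-99b-5p at 0.20, miR-125a-5p at 0.24 and miR-125b-5p at 0.32 were above the median by less than 2 errors. At 48 h, the members ran from −0.37 for miR-99a-5p to 0.55 for miR-125a-5p, which both lay more than 2 errors from the median, and 2 of 7 were above the sham signal, as given above.

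**Figure D2:**
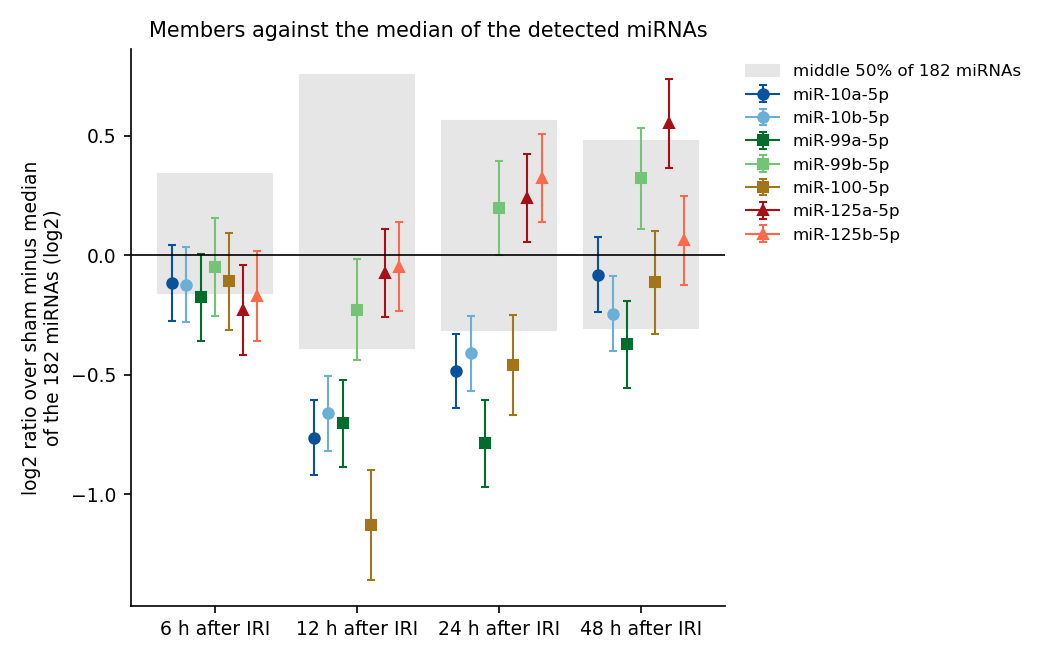
Log2 ratio over sham minus the median of the 182 miRNAs detected on all arrays, for the 7 miRNAs at each time point, with scanner errors as bars. The shaded boxes span the middle 50% of the 182, and at 12 and 24 h the miR-10 pair, miR-99a-5p and miR-100-5p lay under them while miR-99b-5p and the miR-125 pair lay inside.

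The unscaled log2 ratios of the miR-10 pair, miR-99a-5p and miR-100-5p ran from 0.25 to 0.62 at 24 h, and those of miR-99b-5p and the miR-125 pair from 1.23 to 1.36. At 12 h the ranges were −0.58 to −0.11 and 0.32 to 0.50. This division was drawn after the values were seen, so that the gap between its sides is a description. Of the 21 pairs of members, those more than 2 errors apart numbered 0, 10, 12, and 6 at the 4 time points. The largest distance was 1.08 at 12 h, between miR-125b-5p and miR-100-5p, and 1.11 at 24 h, between miR-125b-5p and miR-99a-5p. The 12 h value of −0.58 was that of miR-100-5p, whose sum lacked the dimmer probe. With the brighter probe alone it was −0.33, which would make the 12 h distance smaller.

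Within slide 2 and 1 scan, where feature sizes were nearly equal, 12 and 24 h could be compared without the change of slide. All 7 members were higher at 24 h than at 12 h, as were 80.2% of the 182, and 7 of 7 by more than 2 errors, beside 61.0%. Their median log2 ratio was 0.80, against 0.46 for the 182 miRNAs. miR-100-5p alone was at least 2-fold higher, which 6.59% of the 182 were, and its 12 h sum lacked the dimmer probe. From 24 to 48 h, on the same slide and in another scan, all 7 were lower, beside 1.65% of the 182 that were higher, and 7 of 7 by more than 2 errors, as 90.7% differed. At least 2-fold lower were 3 of them (miR-10b-5p, miR-99b-5p and miR-125b-5p) and 65.4% of the 182. With 1 feature size that number was 1, miR-125b-5p, beside 42.3%. The members nevertheless fell less than most detected miRNAs, with 6 of 7 above the median of the 182 in this comparison and a member median 0.29 above it. miR-99a-5p at 0.39 and miR-10a-5p at 0.38 lay above it by more than 2 errors. The direction from 24 to 48 h also depended on the scaling. The members' median log2 ratio of −0.95 became 0.34 under the 75th percentile, 0.26 after quantile normalization and 0.28 in the processed table of the authors. It remained below 0 with 1 feature size, at −0.58. Scaled by the spike-in controls, 0 of 7 members were higher at 48 h than at 24 h. The unscaled median of the 182 was itself −1.24.

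The 2 probes of a miRNA gave the same direction over sham for 4 of 7 members at 6 h, for 6 at 48 h, and for all 7 at 12 and 24 h. The median distance between the log2 ratios of the 2 probes was 0.07, 0.12, 0.20, and 0.19. At 24 h the dimmer probe gave the higher ratio in 7 of 7 members, and the widest gap was in miR-125a-5p, with 1.21 for the brighter and 1.68 for the dimmer probe. For miR-99b-5p the probes gave 1.22 and 1.25. The spot CV of the member probes was 2.0 to 31.6% with a median of 5.41%, whereas the scanner errors of the member sums were 7.56 to 12.7%, because the software adds a preset error of 10% to each probe. Spots of 1 array are no replicates of the condition.

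**Figure D3:**
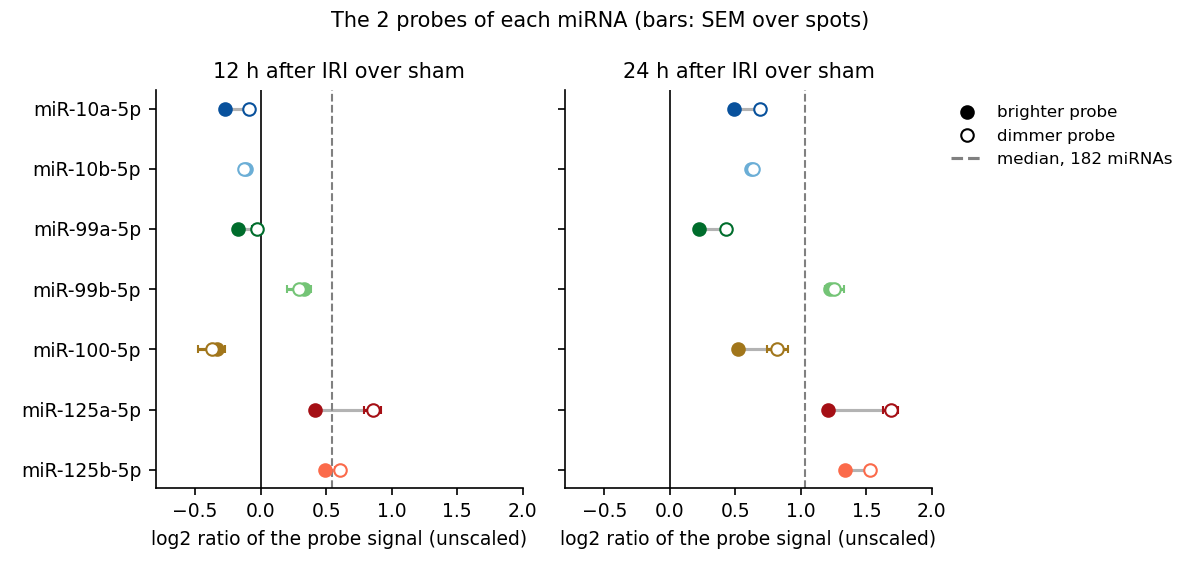
Log2 ratio over sham of the brighter (filled) and dimmer (open) probe of each miRNA at 12 and 24 h after IRI, unscaled, with the SEM over spots as bars. The dashed line is the median of the 182 detected miRNAs, and at 24 h both probes of miR-99b-5p, miR-125a-5p and miR-125b-5p lay to its right and both probes of the other 4 to its left.

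The opposite arms of the same hairpins were mostly not detected. Of the 8 3p arms, 6 were detected on no array. miR-99b-3p was not detected on the sham and 48 h arrays and had signals of 2.43 at 6 h, 11.9 at 12 h, and 11.6 at 24 h. These sums held 1, 3 and 2 of its 4 probes, so that they are not sums over the same probes. miR-125a-3p was the 1 opposite arm detected throughout, and its sequence is given because its log2 ratios moved apart from those of miR-125a-5p, again with the seed in capitals.
miR-125a-3p, chr17:17830855-17830876: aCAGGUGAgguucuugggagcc

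miR-125a-3p had a signal of 11.6 in sham kidney and of 36.9, 94.3, 83.9, and 6.50 at 6, 12, 24, and 48 h. It was high at 12 and 24 h, and 48 h was below sham, where 2 of its 4 probes were detected and the sum held those alone. Its log2 ratio over sham was 1.67, 3.03, 2.86, and −0.83 with errors of 0.19 to 0.32, and 2.66 at 12 h and 2.49 at 24 h with 1 feature size. Its ranks from the top among the 182 miRNAs were 15, 17, 6, and 162. The log2 ratio of the 3p arm exceeded that of miR-125a-5p by 1.75, 2.55, and 1.59 at 6, 12, and 24 h (errors of 0.26 to 0.27), and differed from it by −1.15 (error 0.37) at 48 h. At 6 h, where sham was on the same slide and scan and the 5p arm was at −0.07, the 3p arm had 3.19 times its sham signal.

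The 3 let-7 miRNAs encoded beside the members, repressors of growth genes, had median log2 ratios over sham of −0.31, 0.03, 0.68, and −0.37. Those of the 7 members were 0.03, −0.11, 0.62, and −0.31 at the same 4 time points. let-7e-5p was lower than the members of its cluster at each time point, and errors of these differences were not computed. let-7e-5p, which lies between miR-99b and miR-125a, gave 355 on the sham array, followed by 266, 244, 563, and 275 at 6, 12, 24, and 48 h. Its log2 ratio over sham was −0.42 at 6 h and −0.54 at 12 h (error 0.18), time points at which miR-99b-5p was at 0.11 and 0.32 and miR-125a-5p at −0.07 and 0.47. let-7c-5p had 2368, 2278, 2713, 3793, and 1825, and let-7a-5p had 1311, 1061, 1342, 2447, and 1032. Both are made from further genes outside these clusters, and let-7 sequences differ by few bases, so their signals cannot be assigned to the cluster copies.

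**Figure D4:**
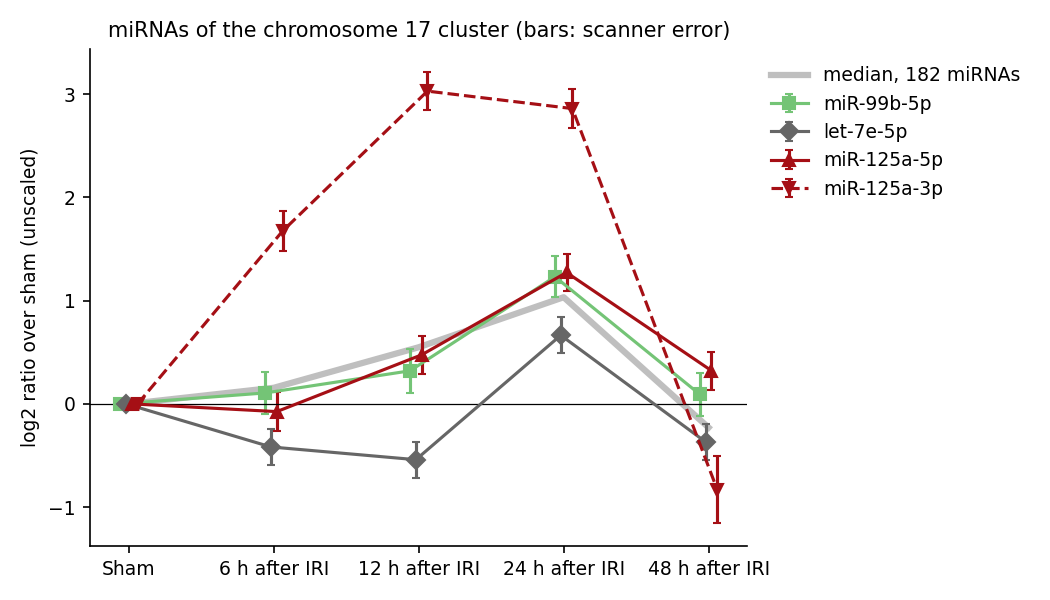
Log2 ratio over sham (unscaled) of the miRNAs of the chromosome 17 cluster by time, with scanner errors as bars and the median of the 182 detected miRNAs as a grey line. miR-99b-5p lay within 2 errors of the median at each time point, miR-125a-5p was 0.55 above it at 48 h, let-7e-5p was lower at −0.54 at 12 h, and miR-125a-3p reached 3.03 at 12 h and −0.83 at 48 h.

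Of 4 other miRNAs from Hox clusters, 2 were detected on all arrays. miR-196a-5p had 171, 181, 154, 225, and 131 on the sham, 6, 12, 24, and 48 h arrays, with log2 ratios over sham of 0.08, −0.15, 0.40, and −0.38 (error 0.12), beside 0.04, −0.22, 0.55, and −0.31 for miR-10a-5p. miR-196b-5p had 95.1, 96.6, 106, 146, and 84.3, with ratios of 0.02, 0.16, 0.62, and −0.17. miR-615-3p was detected at 12 h, with 5.23 from 1 of 4 probes, and at 24 h, with 22.9 from 3 of 4, and miR-615-5p was detected on no array. miR-6394, which has the miR-125 seed, had 5.32 at 6 h, 10.9 at 12 h, and 9.68 at 24 h and was not detected on the other 2 arrays.

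The profiles most like the median of the 7 members over the 4 time points, among 169 other miRNAs detected on all arrays, were those of miR-28a-5p, miR-322-5p and let-7d-5p. Their root mean square distances from it were 0.051, 0.082 and 0.10 on the log2 scale. The scanner errors of their log2 ratios over sham were larger, at 0.28 to 0.33, 0.16 and 0.18 in the same order. The order of these profiles is therefore not resolved. miR-28a-5p had log2 ratios over sham of 0.03, −0.16, 0.71, and −0.34 at 6, 12, 24, and 48 h.

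Without scaling, marker lists of cell types moved with time, as did the median of the detected miRNAs. The 7 kidney tubule miRNAs summed to 3466, 4172, 4889, 5923, and 2554 on the sham, 6, 12, 24, and 48 h arrays. The summed signal of 5 stroma miRNAs was 164, 183, 236, 381, and 195 on the sham, 6, 12, 24, and 48 h arrays, with 4 of 5 detected on all of them. Endothelial miR-126-3p and miR-126-5p summed to 831, 881, 898, 1284, and 586, of which miR-126-5p was detected on the sham array alone. The 6 leukocyte miRNAs summed to 47.8, 76.7, 111, 70.7, and 61.2, with 2 detected on all arrays and miR-142-5p and miR-150-5p on none. Of the red blood cell list, miR-451a had 159, 500.3, 234, 538, and 105, miR-144-3p was detected on no array, and miR-486-5p was not among the names on it. The part of these cells in the members' values was not tested.

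The values were made in 7 ways that are not all equal by construction. Without the detection filter and in the total gene signal, a member with both probes detected keeps its sum, so that only the median can move. Counts of 7 therefore hold fewer separate outcomes. miR-10a-5p, miR-10b-5p and miR-99a-5p were below the detected median at both 12 and 24 h in 7 of 7. miR-125a-5p and miR-125b-5p were above it at 24 h in 7 of 7. At 24 h, miR-10a-5p ran from −0.52 to −0.018. It was at −0.038 after quantile normalization and at −0.018 in the processed table of the authors, both smaller than its error of 0.16. At 12 h, miR-125a-5p was below the detected median in 7 of 7, at −0.11 to −0.04, each smaller in size than its error of 0.18. miR-125b-5p was below the detected median in 4 and above it in 3, by up to 0.38 after quantile normalization. miR-99b-5p was above it at 24 h in 7 of 7, by 0.01 to 0.30, and below it at 12 h in 7 of 7. miR-100-5p was below it at 24 h in 7 of 7 and at 12 h in 6 of 7. The exception was the total gene signal of the software, which gave miR-100-5p 615.6 at 12 h where its own probes gave 25.6. The excess, 590.0, equalled the own-probe signal of let-7i-5p on that array, and it was the 1 of 35 member values with such an excess. At 12 h, miR-99b-5p was higher than miR-99a-5p by 0.48 (error 0.28) in log2 ratio over sham, but after quantile normalization and in the processed table of the authors the difference was −0.27 and −0.20.

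**Figure D5:**
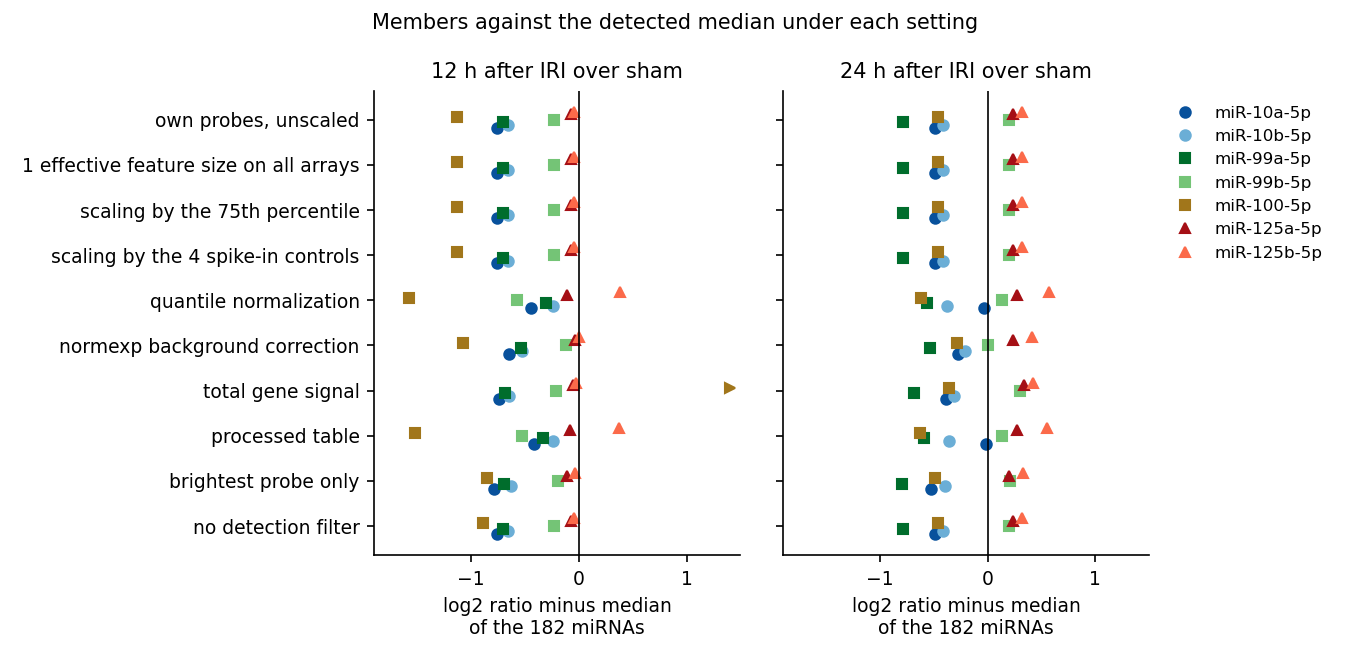
Log2 ratio over sham minus the median of the 182 detected miRNAs for the 7 miRNAs at 12 and 24 h, under each way of making the values. The first 4 rows are equal by construction, and the arrowhead marks miR-100-5p at 3.48, beyond the axis, in the total gene signal.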

How the data were processed

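Kidney RNA of 5 groups was measured on 1-colour Agilent mouse miRNA arrays (Release 19), 1 array per group. The authors deposited spot and probe intensity values written by Agilent Feature Extraction 10.7.1.1, as the submitters' processing notes name it, background-subtracted and not normalized between arrays. The authors also deposited a processed table of log2 values, for which normalization, scale and centring are not given in the sources used here. Its column medians were −3.12, −3.22, −3.30, −3.32, and −3.01 for sham, 6, 12, 24, and 48 h.

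The own-probe signal of a miRNA was the sum of its probe signals, each taken once, over probes above 3 times their error, and errors were added in squares. Log2 ratios over sham were computed unscaled, with 1 effective feature size, and minus the median of the 182 miRNAs detected on all arrays. A value was called different beyond 2 scanner errors, at 2-fold over sham, or at 1.5-fold from that median. With 1 array per group no p-value was computed, and precision is limited by the number of arrays. The lowest detected signal was 1.99 on the sham array and 4.35 at 24 h.

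miRNAs named were the 7 members, the other arms of their hairpins, let-7 partners, other Hox cluster miRNAs, miRNAs with a shared seed, and the 3 nearest profiles. Members and lists were chosen with earlier results of these data known. The alternatives were 9, and 1 more, the detected median without the members, was chosen after seeing the data. Blank values of 0.1 entered only the quantile normalization, which was made over 1247 miRNAs. Normexp used an offset of 50. Python 3.11.15, numpy 2.4.6, pandas 2.3.3, scipy 1.17.1, matplotlib 3.10.9 served for the sums and plots and limma 3.58.1 under R 4.3.3 for normexp, and the computation was tested on simulated data. qRT-PCR, histology and serum measurements were not analysed here.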

Additional observations from a re-analysis of the deposited data

Results flagged for a closer look

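The total gene signal, a column not used for the comparisons above, gave miR-100-5p 615.6 at 12 h after IRI, against 38.3 on the sham array and 25.6 from its own probes at 12 h. It was singled out because a signal outside the main measurement stood above its level in the sham kidney.

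The spike-in controls, which belong to no kidney miRNA, were also above their sham level on the arrays of slide 2. Their mean log2 ratio over sham was 1.05 at 12 h, 1.09 at 24 h, and 1.04 at 48 h, beside 0.07 at 6 h on slide 1.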

How the results depend on the processing

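Of 28 summary values, the brighter probe alone, no detection filter, and the detected median without the members moved none beyond the scanner error or 1.5 times a count. Without the detection filter, the sums of members with both probes detected cannot change. Scaling by 1 feature size, the 75th percentile or the spike-ins cannot change values taken against the detected median, so their constancy there says nothing of stability. With 1 feature size the members' median log2 ratio was −0.48 at 12 h, 0.25 at 24 h, and −0.58 for 48 over 24 h, and the number at least 2-fold higher at 24 h was 0. That number was also 0 under the 75th percentile, the spike-ins, quantile normalization, normexp and the processed table. By the 75th percentile the median over sham was −0.27 at 6 h, −0.75 at 12 h, and −0.54 at 24 h, 24 over 12 h was 0.27, 48 over 24 h was 0.34, and 1 member was at least 2-fold lower at 12 h. By the spike-ins it was −1.17, −0.47, and −1.35 at 12, 24, and 48 h, with 4 members at least 2-fold lower at 12 h and 5 at 48 h. Quantile normalization gave −0.30 at 6 h, −0.83 at 12 h, −0.27 at 24 h, −0.076 at 48 h, and 0.26 for 48 over 24 h. Against the detected median it gave −0.30 at 12 h and −0.038 at 24 h, with 2 members at least 2-fold lower than sham and 1 at least 1.5-fold below the median at 12 h. The processed table gave −0.31, −0.92, −0.25, and −0.078 at 6, 12, 24, and 48 h and 0.28 for 48 over 24 h. Against the detected median it gave −0.33 at 12 h and −0.018 at 24 h, with 2 members at least 2-fold lower than sham at 12 h, and 1 at 12 h and 2 at 24 h at least 1.5-fold below the median. In both, the 24 h log2 ratio of miR-99b-5p turned to −0.093. Normexp gave −0.41 at 12 h, 0.24 at 24 h, −0.10 at 48 h, and −0.42 for 48 over 24 h, −0.21 against the detected median at 24 h, and 2 members at 12 h and 0 at 24 h at least 1.5-fold below it. The total gene signal gave 0.32 at 12 h and −0.21 against the median. It put 1 member at least 2-fold above sham and 1 at least 1.5-fold above the median at 12 h, miR-100-5p, which turned from −1.13 to 3.48 by an excess equal to the own-probe signal of let-7i-5p. The cause of these changes was not tested. No replicate could be left out with 1 array per group. No paired analysis was possible because no group has a second sample. The lowest detected signals, 1.99 to 4.35, limit what could be seen of the opposite arms.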
